A study of Mus musculus with 12 samples.

Results

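Cardiac macrophages (Mφ) of mice infused with isoproterenol for 14 days were compared with those of mice carrying a saline pump. The comparison takes the 4 libraries labelled with the 14-day isoproterenol pump (ECH, for early concentric hypertrophy) and the 4 labelled with the saline pump (control, Ct), 8 of the 12 libraries of the series. All mice were C57BL6/J with no genetic modification, and each library came from 1 mouse, with 4 mice in a group. ECH mice received 30 mg/kg/day of isoproterenol, a β-adrenergic agonist, and the methods give either 14 or 28 days for vehicle pumps without saying which holds for these Ct mice. The other 4 libraries, from mice infused for 28 days, entered the statistical fit only as a further group. From each heart, leukocytes were enriched with CD45 beads, and live CD11b+ cells gated as CD14+/CD64+ were sorted, so the values describe cells that pass this gate and not all cardiac Mφ.

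Resident cardiac Mφ clear dying cells and debris from cardiomyocytes, recycle iron and lipids, and present antigen, while Mφ that arise from recruited monocytes take part in matrix turnover. Mφ that take up much lipid and debris are known for a shared set of genes that includes osteopontin, GPNMB, galectin-3, fatty acid binding proteins and lysosomal cathepsins. β-adrenergic receptors couple to Gs, raise cyclic AMP and, through CREB, act on genes with cAMP response elements.

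The 8 libraries held 88466559 to 109030774 gene counts, and expression is given as CPM, the counts scaled to library size after TMM normalization. Genes of the Mφ lineage were high in every library, with Csf1r, the receptor of the Mφ growth factor, at 2619.6 to 5297 CPM in Ct and 4036 to 4586 CPM in ECH and Cd68, a lysosomal membrane protein of Mφ, at 939.8 to 1049 CPM in Ct and 1024 to 1241 CPM in ECH. Of the genes behind the sort, Cd14 lay at 1888 to 2942 CPM in Ct and 2139 to 2993 CPM in ECH, Fcgr1 (CD64) at 100.01 to 159.5 CPM in Ct and 71.5 to 182 CPM in ECH, Ptprc (CD45) at 620.0 to 656 CPM in Ct and 424 to 662 CPM in ECH and Itgam (CD11b) at 223 to 559 CPM in Ct and 636 to 787 CPM in ECH. The hemoglobin genes Hba-a1, Hba-a2, Hbb-bs and Hbb-bt were at 0 in all 8 libraries, and Alas2, another erythroid gene, lay at 0 to 0.242 CPM. How reads shared by near-identical genes were counted is not given, so these zeros do not measure red cell RNA. Ct library 2 stood apart in ribosomal protein, B cell and neutrophil transcripts, with values given beside the results they touch. Library numbers in the labels place ECH libraries 1 and 2 in 1 set with the Ct libraries and ECH libraries 3 and 4 in another with the 28-day libraries. The set is inferred from these numbers only, and the pairs of ECH libraries differed for several gene groups.

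After 14 days of isoproterenol, Mφ carried more RNA of 5 of the 16 listed genes that mark lipid-laden Mφ, among them Fabp5 (log2 fold change 2.79 ± 0.28, SE), Spp1 (3.78 ± 0.56) and Gpnmb (4.68 ± 0.77), and of the membrane-bound proteases Adam8 (2.89 ± 0.23) and Mmp14 (2.27 ± 0.27). Receptors for immune complexes and microbial RNA, Fcgr4 and Tlr13, rose as well, and so did enzymes of glycolysis and alanine metabolism, Pkm, Pfkl and Gpt2. RNA of Timd4 (-1.62 ± 0.30), a receptor of resident Mφ, of the lectin Cd209f (-2.75 ± 0.51), of the transferrin receptor Tfrc (-1.67 ± 0.31) and of the sialic acid enzyme Cmah (-1.83 ± 0.26) fell, together with Fcmr, the IgM receptor of B cells. A gene was called at a false discovery rate (FDR, p adjusted by Benjamini-Hochberg over 14608 genes) under 0.05 and a change of at least 2-fold in edgeR's quasi-likelihood (QL) test. By this rule 39 genes rose (0.267% of genes tested) and 13 fell (0.089%), with folds of 2.02 to 25.6 upward, leaving out 4 genes with no count in Ct, and 2.08 to 6.73 downward. In all 52 genes the ranges of the groups did not overlap, against 4.33% of all genes tested with every ECH library above every Ct library and 3.64% with every ECH library below. At an unadjusted p under 0.05, 6.03% of all genes tested were higher and 5.89% lower, which is the background for the gene lists below, and the median log2 fold change of all genes tested was 0.01. Called genes were sensitive to single libraries: 9 of the 39 higher genes and 1 of the 13 lower genes, Cmah, were called in each of the 8 fits that left out 1 library. Without Ct library 1, 10 of the 39 and 1 of the 13 were called, without Ct library 4 it was 17 and 3, without ECH library 3 it was 16 and 1, and without ECH library 4 it was 23 and 2. A fit on the 8 libraries alone called 6 higher and 2 lower genes, whereas DESeq2 called 131 and 117, among them all 39 and 13. With ECH libraries 1 and 2 only, 16 of the 39 and 1 of the 13 were called, and with ECH libraries 3 and 4 only it was 32 and 9. The mean of ECH libraries 3 and 4 was above that of 1 and 2 in 26 of the 39 higher genes and below it in 11 of the 13 lower genes. Adam8, Cyth1, Fabp5 and Mmp14 were called in all 20 alternative fits.

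**Figure D1:**
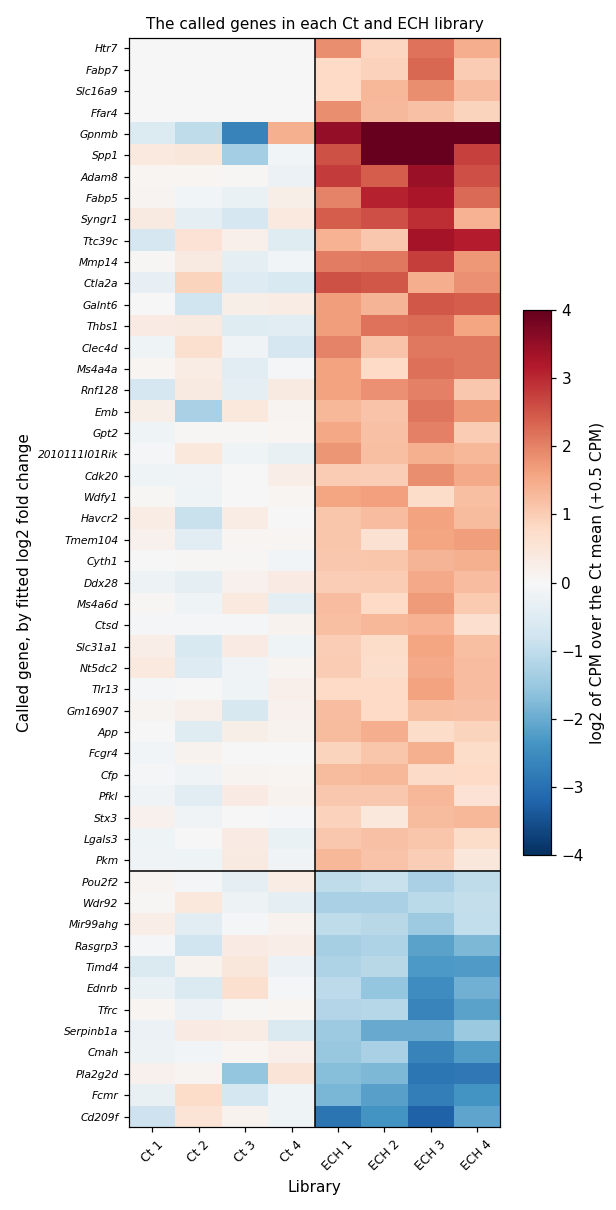
51 of the 52 called genes (rows, ordered by fitted log2 fold change) in each Ct and ECH library (columns). Colour gives log2 of CPM over the Ct mean with 0.5 CPM added to both, which understates the change of low genes such as Htr7, Fabp7, Slc16a9 and Ffar4; the 39 genes above the horizontal line rose in ECH and the 12 below it fell.

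Of the genes that mark lipid-laden Mφ, Spp1, Gpnmb, Fabp5, Lgals3 and Ctsd rose. Spp1 (osteopontin, a secreted matricellular protein, chr5:104435118-104441050 in GRCm38) was at 64.9, 67.5, 18.7 and 45.4 CPM in Ct libraries 1 to 4 and at 292, 948, 1121 and 328 CPM in ECH libraries 1 to 4. The lowest ECH library was more than 4-fold above the highest Ct library, and ECH libraries 2 and 3 were far above 1 and 4. Its log2 fold change was 3.78 ± 0.56 (SE, n = 4 and 4, edgeR QL FDR 0.0139), and the FDR was 0.0628 without Ct library 1. Gm42793 shares 18.8% of the exon bases of Spp1 on the same strand. Gpnmb (a transmembrane glycoprotein of endolysosomes, chr6:49036546-49070929) was measured at 7.45, 5.21, 1.30 and 30.5 CPM in Ct and at 133, 293, 501 and 213 CPM in ECH. Ct library 4 was the highest control and Ct library 3 the lowest, and every ECH library exceeded them. The log2 fold change of 4.68 ± 0.77 (edgeR QL FDR 0.0202) was the largest among called genes with counts in Ct, and its FDR was 0.0831 without Ct library 1.

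Fabp5, a carrier of fatty acids in the cytosol (chr3:10012548-10016607), lay at 17.1, 14.7, 13.1 and 18.6 CPM in Ct and at 64.5, 137, 158 and 78.1 CPM in ECH. The Ct libraries lay close together and the ECH libraries split into 2 near 70 and 2 near 150 CPM, without overlap between the groups. This was an increase of 2.79 ± 0.28 on the log2 scale (edgeR QL FDR 0.000914). Fabp5 has processed pseudogenes, so a part of its reads may be shared with near-identical copies. Lgals3 (galectin-3, a lectin that binds damaged lysosomes, chr14:47367751-47386160) rose from 359, 410.1, 507 and 338 CPM in Ct to 851, 915, 871 and 677 CPM in ECH. The groups were apart, with Ct library 3 the control nearest to ECH. Its log2 fold change was 1.04 ± 0.15 (edgeR QL FDR 0.0139, and 0.0645 without Ct library 1).

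2 further genes of fatty acid handling had no count in any Ct library. Ffar4, the receptor of long-chain fatty acids also known as GPR120, held 50 to 134 counts in the ECH libraries, or 1.33, 0.737, 0.628 and 0.432 CPM. Against a floor of 3 counts per Ct library its mean was at least 22.4-fold higher in ECH (edgeR QL FDR 0.0116). Fabp7, a fatty acid binding protein best known from brain, held 38 to 218 counts and was at least 23.6-fold higher (edgeR QL FDR 0.0298, and 0.0981 without ECH library 3). ECH library 3 alone carried most of the Fabp7 counts, at 1.96 CPM, while the remaining ECH libraries lay between 0.376 and 0.519 CPM. All of these values are near 1 CPM, and floors cover counting error only.

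Of the 16 tested genes of the lipid-associated Mφ list, 5 rose and none fell, 7 had an unadjusted p under 0.05 upward and none downward, and the median log2 fold change was 0.31. The summed level of the list overlapped, at 24510.0 to 30342 CPM in Ct and 27608 to 36937 CPM in ECH. Other members of the list did not pass the test. Trem2, the lipid receptor of these cells, was at a mean of 142 CPM in Ct and 164 CPM in ECH (log2 difference 0.21), Apoe, the carrier of exported lipid, at 21809 and 22043 CPM (log2 difference 0.02), and Lpl, lipoprotein lipase, at 324 and 225 CPM (log2 difference -0.53). These 3 genes were named after their values were seen. Plin2, which coats lipid droplets, was at 556, 304, 317 and 285 CPM in Ct and 475, 472, 1211 and 977 CPM in ECH. Its high values were those of ECH libraries 3 and 4, while ECH libraries 1 and 2 lay within the Ct range (log2 difference 1.10 ± 0.31, edgeR QL FDR 0.157).

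**Figure D2:**
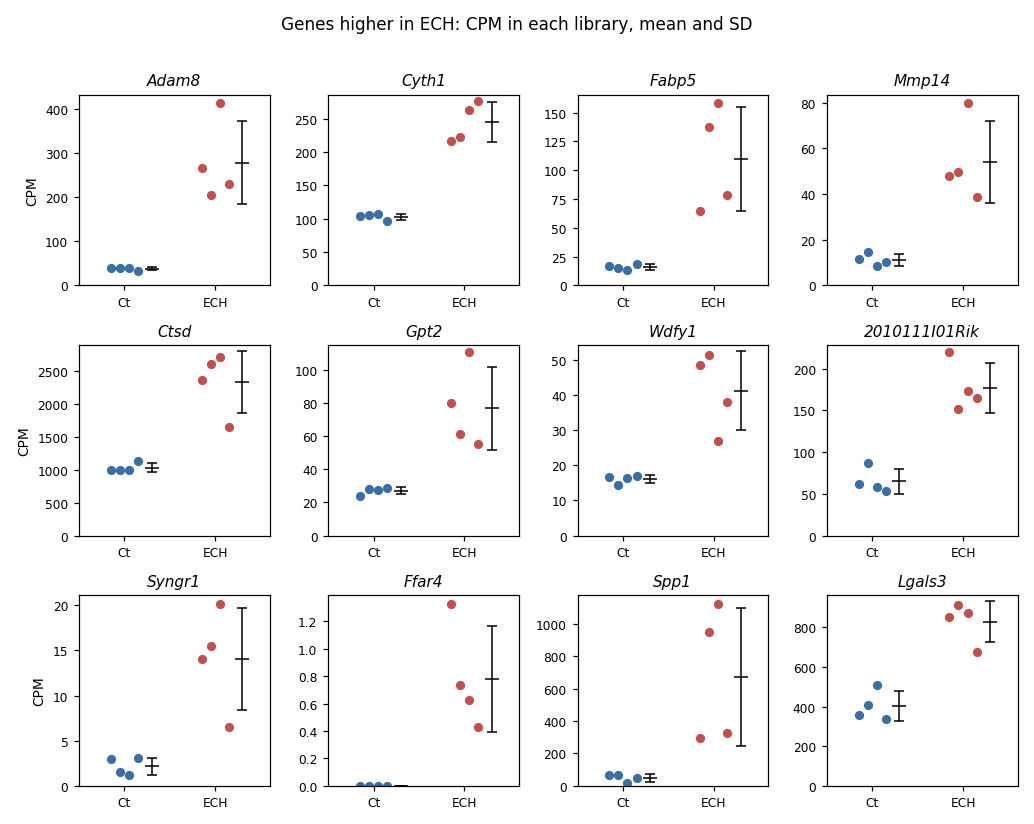
CPM (linear axis from 0) of the 12 called genes with the smallest p among those higher in ECH. Points are the 4 Ct and 4 ECH libraries in order 1 to 4, and the bar beside them is the mean with the SD; in every panel all ECH points lie above all Ct points.

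Most lysosomal genes had higher values in ECH, but only 1 passed the test. Ctsd (cathepsin D, an aspartic protease of the lysosome, chr7:142375911-142388038) was at 1001, 990.5, 989 and 1137 CPM in Ct and 2362, 2598, 2703 and 1647 CPM in ECH. Ct libraries 1 to 3 were nearly equal, and ECH library 4 was the ECH library nearest to them. Its log2 fold change of 1.18 ± 0.15 passed the test (edgeR QL FDR 0.00803) and did so in each fit without 1 library. Another annotated gene, Gm49369, shares 34.4% of the exon bases of Ctsd on the same strand, so some of its reads may belong there. Of 33 tested lysosome genes Ctsd alone was called, but 15 had an unadjusted p under 0.05 upward against 1 downward, 27 were positive and the median log2 fold change was 0.26. The summed level of the list was 24704 to 29496 CPM in Ct and 32119 to 37589 CPM in ECH, so the groups did not overlap. The median kept its direction in ECH libraries 1 and 2 alone (0.29) and in ECH libraries 3 and 4 alone (0.31).

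The next members by p were the cysteine protease cathepsin L (Ctsl), at 300.1 to 466 CPM in Ct and 478 to 799.8 CPM in ECH (log2 difference 0.88 ± 0.19, edgeR QL FDR 0.073), the proton pump subunit Atp6v0d2, at 6.01 to 12.2 CPM in Ct and 14.1 to 37.9 CPM in ECH (log2 difference 1.33 ± 0.32, edgeR QL FDR 0.0996), and the β-glucuronidase Gusb, at 224 to 345 CPM in Ct and 398 to 511 CPM in ECH (log2 difference 0.61 ± 0.15, edgeR QL FDR 0.101). Other annotated genes share 26.8% of the exon bases of Ctsl. None of these 3 passed the threshold, although their groups did not overlap. Tfeb and Tfe3, factors that act on lysosomal genes through E-boxes, differed by -0.07 and -0.02 on the log2 scale. The E-box CACGTG was searched on both strands of RefSeq promoters (250 bases before to 50 after the start, GRCm38.p6). It was found in the promoters of 8 of the 25 lysosome genes with a promoter in the table (32%), against 11.3% of the tested genes and 8.09% of all genes with a promoter. The share was not particular to lysosome genes. Other lists searched held the E-box in 31.2% (clock), 29.4% (immediate early), 25% (glucocorticoid-induced), 23.5% (β-adrenergic signalling) and 15.8% (CREB targets and phosphodiesterases) of genes. Among the 33 higher and 11 lower called genes with a promoter it was found in 2 (Ctsd and Cdk20) and 0. The promoters of Ctsd and Ctsl are shown, 5′ to 3′ along the gene, with the E-box in capitals, as the lysosomal genes with the smallest p that carry it. A match is a description of the sequence and not evidence of binding.
Ctsd promoter, chr7:142387778-142388077, minus strand: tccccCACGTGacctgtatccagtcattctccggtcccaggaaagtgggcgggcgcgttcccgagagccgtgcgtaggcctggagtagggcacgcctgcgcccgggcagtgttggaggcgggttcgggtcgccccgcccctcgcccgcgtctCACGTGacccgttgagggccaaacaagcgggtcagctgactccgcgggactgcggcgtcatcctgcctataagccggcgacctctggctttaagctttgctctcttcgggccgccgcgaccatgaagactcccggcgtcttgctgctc
Ctsl promoter, chr13:64370471-64370770, minus strand: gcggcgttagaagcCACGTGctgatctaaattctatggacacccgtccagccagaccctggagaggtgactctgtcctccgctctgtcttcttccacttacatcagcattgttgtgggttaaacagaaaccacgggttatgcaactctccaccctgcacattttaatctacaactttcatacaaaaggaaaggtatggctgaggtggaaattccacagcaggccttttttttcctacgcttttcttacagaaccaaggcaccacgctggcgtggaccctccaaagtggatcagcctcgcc

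2 proteases that act at the cell surface rose in every fit that was run. Adam8, a membrane-bound sheddase of leukocytes (chr7:139978932-139992562), was at 39.7, 40.047, 38.5 and 32.0 CPM in Ct and at 266, 206, 414 and 229 CPM in ECH. The Ct libraries were nearly equal, and the lowest ECH library was more than 5-fold above the highest of them. The log2 fold change was 2.89 ± 0.23 (edgeR QL FDR 0.000179), the smallest FDR of all genes, and no fit without 1 library gave an FDR above 0.00248. Mmp14, the membrane-type matrix metalloproteinase that activates pro-MMP2 (chr14:54431612-54445364), was at 11.6, 14.6, 8.43 and 10.3 CPM in Ct and 47.8, 49.9, 80.1 and 38.5 CPM in ECH. Again the groups were far apart, with ECH library 3 the highest. Its log2 fold change was 2.27 ± 0.27 (edgeR QL FDR 0.00363).

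Of the 19 tested MMP, TIMP and ADAM genes these 2 rose, 8 had an unadjusted p under 0.05 upward against 1 downward, and the median log2 fold change was 0.60. Mmp19 was at 1.98 to 7.96 CPM in Ct and 16.8 to 23.3 CPM in ECH (log2 difference 1.98 ± 0.40, edgeR QL FDR 0.05002, just outside the threshold) and the sheddase Adam9 at 116 to 274 CPM in Ct and 299 to 514 CPM in ECH (log2 difference 0.98 ± 0.23, edgeR QL FDR 0.0914). The member that went the other way, Mmp9 or gelatinase B, was at 75.4 to 104 CPM in Ct and 8.16 to 31.2 CPM in ECH (log2 difference -1.87 ± 0.45, edgeR QL FDR 0.0982). Mmp9 is also a product of neutrophils, and the 13 tested neutrophil markers, Mmp9 among them, summed to 492 to 2205 CPM in Ct and 234 to 779 CPM in ECH, with a median log2 fold change of -1.42 and 4 members with an unadjusted p under 0.05 downward. The sum was highest in Ct library 2, the groups overlapped because ECH library 4 reached 779 CPM, and Mpo was at 0 in 7 of the 8 libraries. Without Ct library 2 the median was -0.81 and 2 members had an unadjusted p under 0.05 downward. The part of these markers in the Mmp9 value was not tested. In a bulk sort of this kind, fewer cells of a type and less RNA per cell cannot be told apart.

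Thbs1 (thrombospondin-1, a matricellular protein that activates latent TGFβ, chr2:118111876-118127133) rose from 91.6, 94.4, 51.8 and 53.0 CPM in Ct to 232, 329, 343 and 216 CPM in ECH. The controls fell into 2 near 90 and 2 near 50 CPM, below every ECH library. Thbs1 had a log2 fold change of 1.94 ± 0.32 (edgeR QL FDR 0.0202, and 0.0797 without ECH library 3). Thbs1 was the 1 called gene among 17 tested recruited monocyte genes, of which 5 had an unadjusted p under 0.05 upward and 2 downward, with a median log2 fold change of 0.06. Of the others with small p, Fn1, fibronectin, lay at 72.2 to 151 CPM in Ct and 171 to 397 CPM in ECH (edgeR QL FDR 0.095) and F10, coagulation factor X, at 2.41 to 4.94 CPM in Ct and 7.75 to 27.2 CPM in ECH (edgeR QL FDR 0.103). Matrix genes are also products of fibroblasts, which the CD45 enrichment and the CD11b+ CD14+/CD64+ gate would remove. The 17 fibroblast and mural markers summed to 316 to 845 CPM in Ct and 513 to 1322 CPM in ECH, ranges that overlapped, with 14 of 17 positive, a median log2 fold change of 0.90 and Pdgfra at 0 in Ct library 1. Gsn alone made most of this sum in every library, at 273 to 623 CPM in Ct and 409 to 811 CPM in ECH. The sum therefore follows mainly this gene. Only Postn, a matrix protein of activated fibroblasts, had an unadjusted p under 0.05, at 0.454 to 4.97 CPM in Ct and 10.2 to 48.9 CPM in ECH (edgeR QL FDR 0.274). Their part in the matrix genes was not tested.

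Gpt2 and, among the glycolysis enzymes, Pkm and Pfkl rose. Gpt2, the mitochondrial alanine aminotransferase (chr8:85492576-85527560), was at 23.9, 28.2, 27.7 and 28.6 CPM in Ct and 79.9, 61.6, 110.99 and 55.4 CPM in ECH. The 4 controls were close together and all below ECH library 4, the lowest ECH library. Its log2 fold change was 1.51 ± 0.20 (edgeR QL FDR 0.00803), and it was called in each fit without 1 library. Pkm, pyruvate kinase of the last step of glycolysis (chr9:59656368-59679375), was at 423, 412, 599 and 421 CPM in Ct and 1172, 1029, 919 and 636 CPM in ECH. Ct library 3 reached almost the level of ECH library 4, so the groups were narrowly apart. Pkm rose by 1.02 ± 0.18 on the log2 scale (edgeR QL FDR 0.0298, and 0.0981 without ECH library 3). Gm49759 shares 15.3% of the exon bases of Pkm on the same strand. Pfkl, the phosphofructokinase that commits glucose to glycolysis, was at 37.7 to 64.0 CPM in Ct and 77.3 to 129 CPM in ECH (log2 fold change 1.05 ± 0.19, edgeR QL FDR 0.0334, and 0.135 without ECH library 3).

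Of 20 tested glycolysis and glucose uptake genes, 17 were positive, 9 had an unadjusted p under 0.05 upward and none downward, and the median log2 fold change was 0.46. The phosphoglycerate mutase Pgam1, at 134 to 189 CPM in Ct and 199.7 to 319 CPM in ECH (edgeR QL FDR 0.0523), was nearest to the threshold. Tpi1 was at 145 to 196 CPM in Ct and 184 to 272 CPM in ECH and Gapdh at 414 to 744 CPM in Ct and 672 to 987 CPM in ECH. The summed level was 2781 to 3912 CPM in Ct and 3689 to 5245 CPM in ECH, with overlap, and Ct library 3, at 3912 CPM, was the control that stood above the others. The median was 0.57 in ECH libraries 1 and 2 and 0.26 in ECH libraries 3 and 4. In contrast to these genes, 30 nuclear genes of oxidative phosphorylation were centred on 0, with a median of -0.05, 13 positive and 17 negative, and 1 unadjusted p under 0.05 (Uqcrc2, a subunit of complex III, at 53.7 to 85.9 CPM in Ct and 78.9 to 92.1 CPM in ECH). The difference between these lists was not tested.

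3 further genes that rose encode membrane proteins of small-molecule transport or its assembly, and they come from no list. Emb (embigin, a chaperone of monocarboxylate transporters, chr13:117208536-117274415) was at 27.1 to 91.1 CPM in Ct and 152 to 304 CPM in ECH (log2 fold change 1.65 ± 0.31, edgeR QL FDR 0.0359), and Slc31a1, the copper importer CTR1, at 43.8 to 84.8 CPM in Ct and 112 to 202 CPM in ECH (log2 fold change 1.16 ± 0.23, edgeR QL FDR 0.0443). Ct library 2 was the lowest control for both, at 27.1 and 43.8 CPM. Slc16a9, of the monocarboxylate transporter family, had no count in Ct and 38 to 148 counts in ECH, a mean at least 22.4-fold higher against 3 counts per Ct library (edgeR QL FDR 0.0263). It shares 23.5% of its exon bases with genes of the opposite strand.

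Genes of fatty acid oxidation and fasting separated the ECH pairs more than the groups. Their 25 tested members summed to 3581 to 5008 CPM in Ct, 4199.6 and 4406 CPM in ECH libraries 1 and 2, and 8056 and 7384 CPM in ECH libraries 3 and 4. None was called, 3 had an unadjusted p under 0.05 upward and 2 downward, and the median of 0.33 became -0.16 in ECH libraries 1 and 2 alone and 0.57 in ECH libraries 3 and 4 alone. Much of the sum and of its split came from Ucp2, a mitochondrial carrier, and from Plin2, also a member of this list, with values given above. Ucp2 was at 1638, 1062, 1120.2 and 1262 CPM in Ct and 1502, 1506, 3856 and 3556 CPM in ECH (edgeR QL FDR 0.159). The β-oxidation enzyme Acadvl was at 64.6 to 96.9 CPM in Ct and 100.3 to 129 CPM in ECH.

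Of the Fcγ and Toll-like receptors, Fcgr4 and Tlr13 rose. Fcgr4, an activating receptor for IgG (chr1:171018920-171029761), was at 46.4, 54.9, 50.1 and 49.6 CPM in Ct and 94.0, 110.1, 136 and 83.7 CPM in ECH. The controls varied little, and every ECH library was above them. Its log2 fold change was 1.08 ± 0.16 (edgeR QL FDR 0.0143). Tlr13, the endosomal receptor of bacterial ribosomal RNA (chrX:106143204-106160493), was at 129, 134, 119 and 154 CPM in Ct and 231, 232, 413 and 317 CPM in ECH. ECH libraries 3 and 4 were higher than 1 and 2, which were still above all controls. Tlr13 rose by 1.16 ± 0.19 on the log2 scale (edgeR QL FDR 0.0202). Of the 20 tested Fcγ and Toll-like receptors, 8 had an unadjusted p under 0.05 upward and none downward, with a median log2 fold change of 0.26, and the uncalled ones with the smallest p were Tlr8 (log2 difference 1.11 ± 0.26, edgeR QL FDR 0.0914), Tlr5 (log2 difference 0.89 ± 0.26, edgeR QL FDR 0.169) and Tlr7 (log2 difference 0.79 ± 0.24, edgeR QL FDR 0.192). With ECH libraries 1 and 2 alone the log2 differences of Tlr8, Tlr5 and Tlr7 were 0.53, 0.90 and 0.22. With ECH libraries 3 and 4 alone they were 1.52, 0.86 and 1.20. Wdfy1, an endosomal adaptor of Toll-like receptor signalling, was at 16.7, 14.4, 16.3 and 16.966 CPM in Ct and 48.6, 51.4, 26.9 and 38.0 CPM in ECH, here with ECH libraries 1 and 2 the higher pair (log2 fold change 1.36 ± 0.19, edgeR QL FDR 0.0108).

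Other surface and secreted immune genes that rose were the tetraspan-like Ms4a4a (log2 fold change 1.78 ± 0.28, edgeR QL FDR 0.0202) and Ms4a6d (log2 fold change 1.23 ± 0.20, edgeR QL FDR 0.0202), which belong to a family of close paralogs. The C-type lectin Clec4d lay at 19.017 to 47.8 CPM in Ct and 67.2 to 134 CPM in ECH (log2 fold change 1.90 ± 0.31, edgeR QL FDR 0.0202), with Ct library 2 the highest control. Havcr2 (TIM-3), an inhibitory receptor, lay at 17.3 to 40.8 CPM in Ct and 71.7 to 102 CPM in ECH (log2 fold change 1.33 ± 0.24, edgeR QL FDR 0.0326). Cfp (properdin, which stabilizes the convertase of the alternative complement pathway, chrX:20925454-20931555) lay at 244 to 292 CPM in Ct and 463 to 688 CPM in ECH (log2 fold change 1.07 ± 0.16, edgeR QL FDR 0.0144), with ECH libraries 1 and 2 above 3 and 4. It was the 1 called gene of 20 tested complement genes, of which 4 had an unadjusted p under 0.05 upward and 1 downward (median log2 fold change 0.21). Cd55, which protects cells from complement and is abundant on B cells, lay at 10.2 to 46.6 CPM in Ct and 3.45 to 8.18 CPM in ECH (edgeR QL FDR 0.068), the classical pathway protease C1ra at 12.3 to 18.8 CPM in Ct and 19.2 to 25.5 CPM in ECH (edgeR QL FDR 0.238).

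Among 32 tested scavenger receptors and C-type lectins the directions were mixed, with 1 gene called in each direction, 5 with an unadjusted p under 0.05 in each direction and a median of 0.14. Clec4n (dectin-2) lay at 141 to 232 CPM in Ct and 264 to 556 CPM in ECH (log2 difference 1.11 ± 0.24, edgeR QL FDR 0.0732), while Clec12a, an inhibitory receptor for uric acid crystals, lay at 149 to 238 CPM in Ct and 42.1 to 132 CPM in ECH (log2 difference -1.46 ± 0.30, edgeR QL FDR 0.0512) and Clec7a (dectin-1), a β-glucan receptor, at 261 to 331 CPM in Ct and 102 to 261 CPM in ECH (log2 difference -0.88 ± 0.25, edgeR QL FDR 0.158). Among 20 tested efferocytosis genes Timd4, described with the genes that fell, was the only one called, and 3 had an unadjusted p under 0.05 upward and 1 downward (median 0.17). The apoptotic cell receptor Mertk lay at 76.0 to 177 CPM in Ct and at 183, 174, 496 and 414 CPM in ECH (log2 difference 1.43 ± 0.35, edgeR QL FDR 0.101), with narrow overlap. Its log2 difference was 0.59 with ECH libraries 1 and 2 alone and 1.96 with ECH libraries 3 and 4 alone. Itgb5, a subunit of the αvβ5 integrin, lay at 287 to 427 CPM in Ct and 427 to 614 CPM in ECH (edgeR QL FDR 0.107) and Anxa1, annexin A1, at 160.2 to 348 CPM in Ct and 322 to 463 CPM in ECH (edgeR QL FDR 0.158).

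The remaining genes that rose have varied roles. Cyth1, an exchange factor of ARF GTPases that acts on integrin adhesion (chr11:118132019-118248592), was at 104, 105, 107 and 95.9 CPM in Ct and 216, 223, 263 and 278 CPM in ECH. Both groups were tight and far apart. The log2 fold change of 1.25 ± 0.12 (edgeR QL FDR 0.000498) was the second in order of p. Syngr1, a vesicle membrane protein, was at 2.96, 1.55, 1.20 and 3.04 CPM in Ct and 14.0, 15.5, 20.2 and 6.56 CPM in ECH, with no overlap (log2 fold change 2.68 ± 0.38, edgeR QL FDR 0.0116). 2010111I01Rik, the aminopeptidase gene now named Aopep, was at 61.7, 87.0, 58.1 and 52.9 CPM in Ct and 220.2, 152, 173 and 165 CPM in ECH (log2 fold change 1.45 ± 0.21, edgeR QL FDR 0.0116). The noncoding Gm16907 (log2 fold change 1.15 ± 0.23, edgeR QL FDR 0.0443) lies within this gene on the opposite strand, and 90 exon bases are shared, where reads cannot be assigned because the strand setting of the counting is not given.

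App, the amyloid precursor protein and a substrate of sheddases, was at 539 to 895 CPM in Ct and 1253 to 2082 CPM in ECH (log2 fold change 1.12 ± 0.19, edgeR QL FDR 0.0202), with ECH libraries 1 and 2 the higher pair. Ctla2a, an inhibitor of cysteine proteases, was at 9.62, 22.8, 8.43 and 7.86 CPM in Ct and 73.2, 69.8, 34.5 and 44.3 CPM in ECH (log2 fold change 2.19 ± 0.36, edgeR QL FDR 0.0202). Its near-identical neighbour Ctla2b makes this value uncertain. Rnf128 (GRAIL), a ubiquitin ligase, was at 6.06 to 12.9 CPM in Ct and 21.5 to 41.7 CPM in ECH (edgeR QL FDR 0.0202), and Stx3, a syntaxin of vesicle fusion, at 18.9 to 23.2 CPM in Ct and 27.9 to 52.5 CPM in ECH (edgeR QL FDR 0.032). Htr7, a serotonin receptor that couples to Gs, had no count in Ct and 43 to 198 counts in ECH, a mean at least 31.3-fold higher against 3 counts per Ct library (edgeR QL FDR 0.0202). Among called genes Ttc39c showed the widest split of the ECH pairs, at 17.5, 14.2, 70.0 and 61.1 CPM in ECH against 3.83, 9.93, 7.51 and 4.52 CPM in Ct (log2 fold change 2.66 ± 0.50, edgeR QL FDR 0.0355). It differed from Ct by 1.29 (log2) in ECH libraries 1 and 2 and 3.35 in ECH libraries 3 and 4. Galnt6 (mucin-type O-glycosylation, log2 fold change 2.12), Cdk20 (a cyclin-dependent kinase, 1.43), Tmem104 (1.30), Ddx28 (a mitochondrial RNA helicase, 1.24) and Nt5dc2 (1.16) complete the list.

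Timd4 was the gene of the resident Mφ list that fell. Timd4 (TIM-4, a phosphatidylserine receptor of long-lived resident Mφ, chr11:46810800-46844332) was at 112, 182, 227 and 142 CPM in Ct and 70.9, 77.3, 33.6 and 34.2 CPM in ECH. All ECH libraries were below all controls, and ECH libraries 3 and 4 were the lowest. It fell by 1.62 on the log2 scale (SE 0.30, edgeR QL FDR 0.0341, and 0.131 without ECH library 3). Of 20 tested genes of resident cardiac Mφ identity, Timd4 alone was called, 15 were negative, and 6 had an unadjusted p under 0.05 downward against 1 upward. The median was -0.30, with -0.18 in ECH libraries 1 and 2 and -0.59 in ECH libraries 3 and 4. The eosinophil chemokine Ccl24 lay at 285 to 491 CPM in Ct and 130.3 to 259 CPM in ECH (log2 difference -1.04 ± 0.24, edgeR QL FDR 0.0846), the lectin Clec10a at 146 to 185 CPM in Ct and 59.9 to 128 CPM in ECH (edgeR QL FDR 0.169) and the leukotriene C4 synthase gene Ltc4s at 101 to 277 CPM in Ct and 65.1 to 111.14 CPM in ECH (edgeR QL FDR 0.202).

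**Figure D3:**
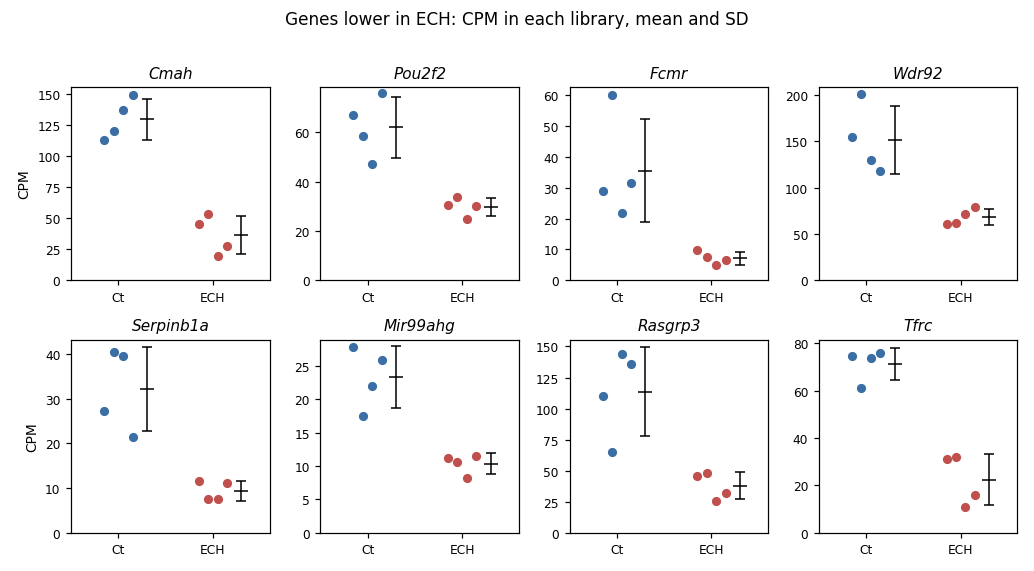
CPM (linear axis from 0) of the 8 called genes with the smallest p among those lower in ECH. Points are the 4 Ct and 4 ECH libraries in order 1 to 4, and the bar beside them is the mean with the SD; in every panel all ECH points lie below all Ct points.

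Tfrc, the transferrin receptor that imports iron (chr16:32608920-32632794), was at 74.6, 61.1, 74.0 and 75.8 CPM in Ct and 31.2, 32.0, 10.9 and 15.9 CPM in ECH. The controls were close together, ECH libraries 1 and 2 were well below them, and ECH libraries 3 and 4 were lower again. It fell by 1.67 on the log2 scale (SE 0.31, edgeR QL FDR 0.0326, and 0.104 without ECH library 4). It was the 1 called gene of 22 tested antioxidant, iron and heme genes, of which 6 had an unadjusted p under 0.05 upward and 1 downward (median 0.15). Hfe, which binds the transferrin receptor and senses iron, lay at 206 to 279 CPM in Ct and 283 to 655 CPM in ECH (log2 difference 0.87 ± 0.23, edgeR QL FDR 0.137), and the sulfiredoxin gene Srxn1 at 22.4 to 38.2 CPM in Ct and 35.8 to 60.1 CPM in ECH (edgeR QL FDR 0.226).

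The next genes that fell belong to no resident Mφ list. Cmah, the hydroxylase that makes the sialic acid Neu5Gc (chr13:24327404-24477377), was at 113, 121, 137 and 149 CPM in Ct and 45.5, 53.0, 19.8 and 27.4 CPM in ECH. Again ECH libraries 3 and 4 lay below 1 and 2, and all below Ct. It had the smallest p of the genes that fell (log2 fold change -1.83 ± 0.26, edgeR QL FDR 0.0116). Cd209f, a C-type lectin with close paralogs, was at 14.6, 38.6, 28.8 and 23.2 CPM in Ct and 3.01, 4.57, 2.38 and 5.69 CPM in ECH, a clear separation (log2 fold change -2.75 ± 0.51, edgeR QL FDR 0.0346, and 0.14 without ECH library 3). Pla2g2d, a secreted phospholipase of tissue Mφ and dendritic cells, was at 104, 99.0, 31.3 and 131 CPM in Ct and 27.7, 26.0, 11.8 and 12.2 CPM in ECH. Ct library 3 was far below the other controls and close to ECH libraries 1 and 2 (log2 fold change -2.23 ± 0.43, edgeR QL FDR 0.0377). Ednrb, the endothelin B receptor, was at 340.4, 275, 648 and 390.4 CPM in Ct and 198, 142, 72.8 and 109 CPM in ECH, with no overlap (log2 fold change -1.67 ± 0.32, edgeR QL FDR 0.0407, and 0.142 without ECH library 4).

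The alternative activation list went both ways, with none of 17 tested genes called, 4 with an unadjusted p under 0.05 upward and 5 downward (median 0.27). Il4ra, the receptor of IL-4 and IL-13, lay at 135 to 276 CPM in Ct and 325 to 479.7 CPM in ECH (log2 difference 1.05 ± 0.22, edgeR QL FDR 0.0596), and Irf4, a factor downstream of it, at 45.5 to 64.6 CPM in Ct and 16.3 to 41.6 CPM in ECH (log2 difference -1.06 ± 0.24, edgeR QL FDR 0.0871). Both sets of libraries were apart, in opposite directions.

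Most B cell markers had lower values in ECH. Fcmr, the Fc receptor of IgM, was at 29.1, 60.007, 21.9 and 31.4 CPM in Ct and 9.76, 7.51, 4.78 and 6.42 CPM in ECH (log2 fold change -2.32 ± 0.39, edgeR QL FDR 0.0202). Ct library 2 was the highest, and all controls were above all ECH libraries. Of 11 tested B cell markers (13 listed), 10 had an unadjusted p under 0.05 downward, all were negative and the median was -2.47. Their sum was 234, 651, 141 and 338 CPM in Ct and 109, 78.2, 45.7 and 61.7 CPM in ECH, lower in every ECH library, and Pax5 was at 0 in ECH library 4. With only Ct libraries 1 and 3, the controls with the lowest sums, the median was -1.61. The signalling subunit Cd79a lay at 33.0 to 178 CPM in Ct and 6.04 to 27.7 CPM in ECH (edgeR QL FDR 0.05002, just outside the threshold).

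Pou2f2 (Oct-2, a transcription factor of B cells and Mφ) fell from 67.2, 58.5, 47.0 and 75.9 CPM in Ct to 30.6, 33.6, 24.9 and 30.2 CPM in ECH (log2 fold change -1.06 ± 0.18, edgeR QL FDR 0.0202), and Rasgrp3, a Ras exchange factor used by B cells and Mφ, from 109.8, 64.9, 144 and 136 to 45.4, 48.4, 25.5 and 32.0 CPM (log2 fold change -1.59 ± 0.29, edgeR QL FDR 0.0326). For Rasgrp3 the Ct library with the most B cell RNA, library 2, was the lowest control. Serpinb1a, an inhibitor of neutrophil proteases, was at 27.2, 40.4, 39.6 and 21.5 CPM in Ct and 11.5, 7.51, 7.50 and 11.2 CPM in ECH (log2 fold change -1.77 ± 0.30, edgeR QL FDR 0.0218). The groups were apart, and the 2 controls highest for Serpinb1a, libraries 2 and 3, were also the highest for the neutrophil sum. Wdr92, which shares 19.8% of its exon bases with neighbouring genes, was at 155, 202, 130.3 and 118 CPM in Ct and 60.9, 61.2, 71.8 and 78.6 CPM in ECH (log2 fold change -1.15 ± 0.19, edgeR QL FDR 0.0202). The noncoding Mir99ahg was at 27.8, 17.4, 22.0 and 25.9 CPM in Ct and 11.2, 10.541, 8.16 and 11.5 CPM in ECH (log2 fold change -1.17 ± 0.20, edgeR QL FDR 0.0244). The CD14+/CD64+ gate would remove B cells, and the part of B cell and neutrophil RNA in these values was not tested.

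Genes of MHC class II presentation, which load and display peptides to CD4 T cells, had mostly negative differences, none of them called. Of 15 tested, 11 had an unadjusted p under 0.05 downward and 1, the protease Ctss, upward, and the median was -0.63. Cd74, the invariant chain, was at 15742, 16041, 14372 and 16156 CPM in Ct and 9507, 12678, 8960.5 and 8675 CPM in ECH, with every ECH library below every control (log2 difference -0.65 ± 0.16, edgeR QL FDR 0.101). The co-stimulator Cd40 lay at 36.4 to 47.5 CPM in Ct and 18.4 to 25.9 CPM in ECH (log2 difference -0.97 ± 0.20, edgeR QL FDR 0.0521) and H2-DMb2 at 10.8 to 36.9 CPM in Ct and 7.15 to 10.3 CPM in ECH (log2 difference -1.27 ± 0.32, edgeR QL FDR 0.115). B cells also express these genes. With only Ct libraries 1 and 3 the median was -0.49 and 5 had an unadjusted p under 0.05 downward. ECH libraries 1 and 2 alone gave 4 downward, 1 upward and a median of -0.46. ECH libraries 3 and 4 alone gave 11 downward, 2 upward and -0.83.

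T and NK cell markers summed to 43.5 to 158 CPM in Ct and 39.3 to 87.0 CPM in ECH, overlapping ranges, with 7 of 16 tested at an unadjusted p under 0.05 downward and 1 upward (median -1.30). Without Ct library 2 it was 3 downward (median -0.98), and with only Ct libraries 1 and 3 it was 1 (median -0.46). Cd3e, a chain of the T cell receptor complex, lay at 1.78 to 8.82 CPM in Ct and 0.449 to 1.65 CPM in ECH and Ncr1 was at 0 in ECH libraries 3 and 4. Dendritic cell markers had a median of 0.02 over 14 tested, with 3 at an unadjusted p under 0.05 downward and 1 upward. The migration receptor Ccr7 lay at 48.6 to 164 CPM in Ct and 17.016 to 44.0 CPM in ECH (edgeR QL FDR 0.0707), Siglech of plasmacytoid cells at 9.69 to 34.7 CPM in Ct and 4.78 to 10.008 CPM in ECH (edgeR QL FDR 0.082) and Flt3 at 0.344 to 6.82 CPM in Ct and 10.522 to 55.8 CPM in ECH (edgeR QL FDR 0.123). Cardiomyocyte markers (median -0.44, 1 of 17 with an unadjusted p under 0.05 in each direction) and endothelial markers (median 0.44, 0 of 17 in either direction) summed to 299 to 402 and 66.2 to 102 CPM in Ct and to 318 to 417 and 90.2 to 125 CPM in ECH, overlapping in both cases. The 8 tested mast, erythroid and platelet markers had a median of 0.84 and no member with an unadjusted p under 0.05.

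**Figure D4:**
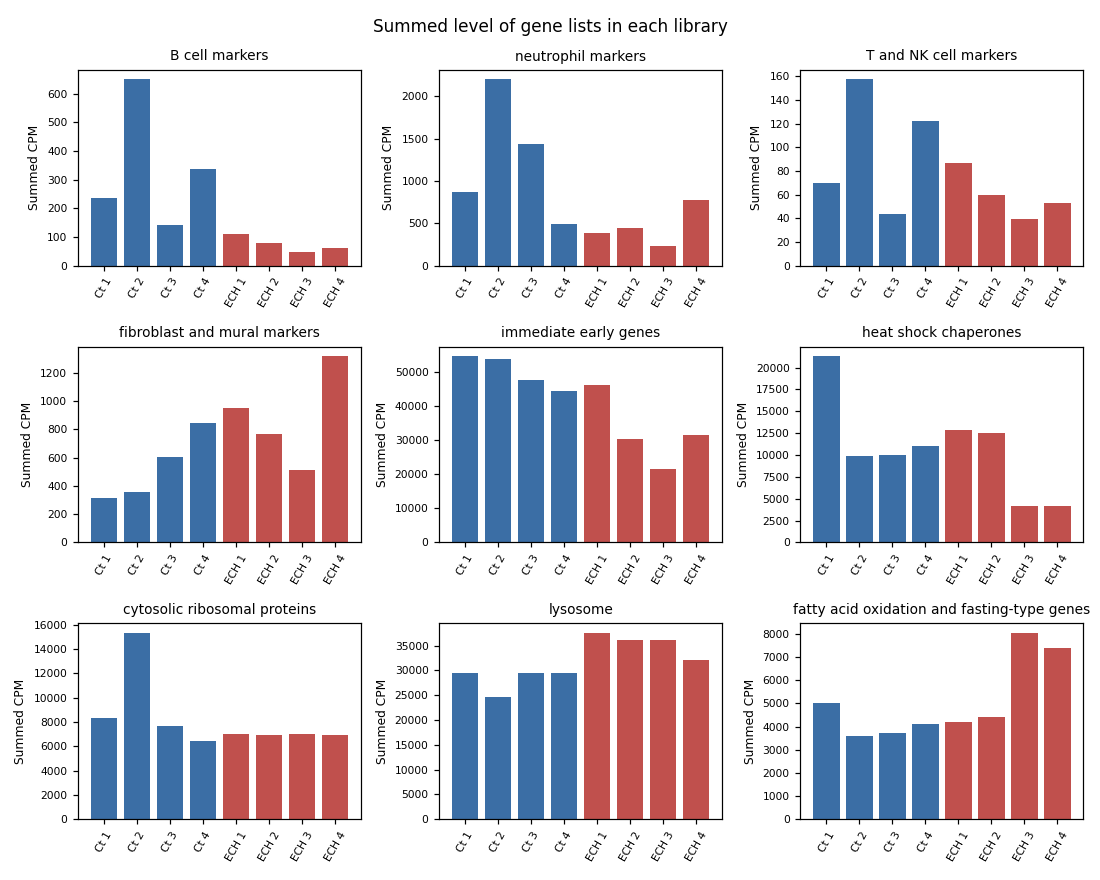
Summed CPM (linear axis from 0) of 9 gene lists in each Ct (blue) and ECH (red) library. B cell markers are lower in every ECH library, Ct library 2 stands out for ribosomal protein genes, and heat shock and fatty acid genes separate ECH libraries 3 and 4 from 1 and 2.

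Immediate early genes, which are transcribed within minutes of a stimulus and also during cell isolation, had mostly lower values in ECH. None of 21 tested was called, but 15 had an unadjusted p under 0.05 downward and none upward, 20 were negative and the median was -0.68. ECH libraries 1 and 2 alone gave 5 downward and a median of -0.39, and ECH libraries 3 and 4 alone 18 and -0.97. With only Ct libraries 1 and 3 it was 8. The sum was 54767, 53895, 47769 and 44505 CPM in Ct and 46340.4, 30492, 21512 and 31548 CPM in ECH. ECH library 1 lay within the Ct range, and the other ECH libraries lay below it. Btg2, an antiproliferative factor, was at 3381, 2840.3, 2839.9 and 2458 CPM in Ct and 2294, 1610.0, 1044 and 1595 CPM in ECH (log2 difference -0.82 ± 0.23, edgeR QL FDR 0.151). The AP-1 subunit Fosb lay at 208 to 742 CPM in Ct and 36.3 to 174 CPM in ECH (log2 difference -1.84 ± 0.52, edgeR QL FDR 0.157), and the factor Klf2 at 1360.3 to 2107 CPM in Ct and 541 to 1285 CPM in ECH (log2 difference -0.98 ± 0.28, edgeR QL FDR 0.166).

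Heat shock chaperones split with the ECH pairs, with sums of 12832 and 12559.8 CPM in ECH libraries 1 and 2, 4114 and 4120.3 CPM in ECH libraries 3 and 4, and 9884 to 21342 CPM in Ct. The median over 14 tested was -0.61, and -0.10 in ECH libraries 1 and 2 alone and -1.44 in ECH libraries 3 and 4 alone, where 12 of 14 had an unadjusted p under 0.05 downward. With all 4 ECH libraries only Hsp90aa1 and Hspb1 had an unadjusted p under 0.05, both downward (edgeR QL FDR 0.315 and 0.362). Of 24 tested inflammatory cytokine and NF-κB feedback genes, 20 were negative and 7 had an unadjusted p under 0.05 downward and none upward, with a median of -0.41 that was -0.19 in ECH libraries 1 and 2 and -0.88 in ECH libraries 3 and 4. Il6 lay at 9.71 to 62.7 CPM in Ct and 5.37 to 12.049 CPM in ECH (edgeR QL FDR 0.126), with overlap, the NF-κB subunit Nfkb1 at 35.0 to 74.0 CPM in Ct and 28.3 to 36.3 CPM in ECH (edgeR QL FDR 0.203) and Tgfb1 at 65.7 to 87.5 CPM in Ct and 51.8 to 66.1 CPM in ECH (edgeR QL FDR 0.268). The part of isolation in these lists was not tested.

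No gene of the receptor pathway on which isoproterenol acts was called. Of 25 tested genes of β-adrenergic receptor signalling, 2 had an unadjusted p under 0.05 upward and 2 downward, 17 were negative and the median was -0.18. The receptor gene Adrb1 was at 12.3, 33.0, 15.3 and 18.6 CPM in Ct and 7.76, 6.20, 7.75 and 9.01 CPM in ECH. Every ECH library was below every control, and Ct library 2 was the highest (log2 difference -1.37 ± 0.30, edgeR QL FDR 0.0732, and 0.115 without Ct library 2). The receptor kinase gene Adrbk2 lay at 35.2 to 56.7 CPM in Ct and 26.9 to 33.0 CPM in ECH (edgeR QL FDR 0.157) and the adenylyl cyclase gene Adcy3 at 2.56 to 10.6 CPM in Ct and 12.4 to 24.9 CPM in ECH (log2 difference 1.55 ± 0.44, edgeR QL FDR 0.158).

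Of 25 tested CREB targets and phosphodiesterases, 3 had an unadjusted p under 0.05 upward and 5 downward (median -0.17), and the phosphodiesterases Pde3b and Pde8a lay at 79.6 to 116 CPM in Ct and 136 to 156 CPM in ECH and at 9.37 to 21.4 CPM in Ct and 19.7 to 27.4 CPM in ECH (edgeR QL FDR 0.0996 and 0.25). The cAMP response element TGACGTCA was found in the promoter of 1 of the 33 higher genes with a promoter (Ddx28, 3.03%) and of 0 of the 11 lower ones, against 3.41% of tested genes and 2.03% of all genes. Its half-site CGTCA was found in 30.3% of the higher and 27.3% of the lower genes, against 33.9% of tested genes. By list it was found in 16 of 19 CREB targets and phosphodiesterases (84.2%), 11 of 17 immediate early genes (64.7%) and 10 of 17 β-adrenergic signalling genes (58.8%). The glucocorticoid, lysosome and clock lists held it in 43.8%, 32% and 31.2% of genes. The D-box TTATGTAA and the palindromic glucocorticoid response element were found in none of the 44 called genes with a promoter, but only 0.774% and 0.0091% of tested genes hold them, so this count says nothing of the called genes. Btg2 is shown as the immediate early gene with the smallest p, and it holds the full element, which is in capitals and includes the overlapping half-sites.
Btg2 promoter, chr1:134079106-134079405, minus strand: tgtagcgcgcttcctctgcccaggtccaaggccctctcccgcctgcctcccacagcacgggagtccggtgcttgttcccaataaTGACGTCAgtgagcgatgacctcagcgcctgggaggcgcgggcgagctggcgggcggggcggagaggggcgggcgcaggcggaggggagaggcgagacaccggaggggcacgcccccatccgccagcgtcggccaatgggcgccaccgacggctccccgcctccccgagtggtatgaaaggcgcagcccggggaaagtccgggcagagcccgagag

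Glucocorticoid-induced and circadian genes again depended on the pair of ECH libraries. None of 20 glucocorticoid-induced genes was called, 4 had an unadjusted p under 0.05 upward and 2 downward, and the median of 0.52 was -0.24 in ECH libraries 1 and 2 and 0.72 in ECH libraries 3 and 4. Sgk1, a kinase of ion transport, was at 136, 151, 161 and 114 CPM in Ct and 227, 281, 341 and 253 CPM in ECH, higher in all 4 ECH libraries, and passed the FDR threshold at 0.0202 (edgeR QL) but not the fold (log2 difference 0.97 ± 0.15). Nr3c1, the glucocorticoid receptor, was at 304, 308, 275 and 326 CPM in Ct and 194, 232, 193 and 187 CPM in ECH, lower in all 4, and likewise missed the fold (log2 difference -0.59 ± 0.12, edgeR QL FDR 0.0443). The small GTPase gene Rhob lay at 237 to 455 CPM in Ct and 122 to 187 CPM in ECH (edgeR QL FDR 0.126). Of 19 clock genes, 3 had an unadjusted p under 0.05 upward (Bhlhe40, Nfil3 and Bhlhe41, edgeR QL FDR 0.128, 0.196 and 0.357) and none downward, and the median of 0.30 was -0.46 and 0.57 in the same pairs.

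**Figure D5:**
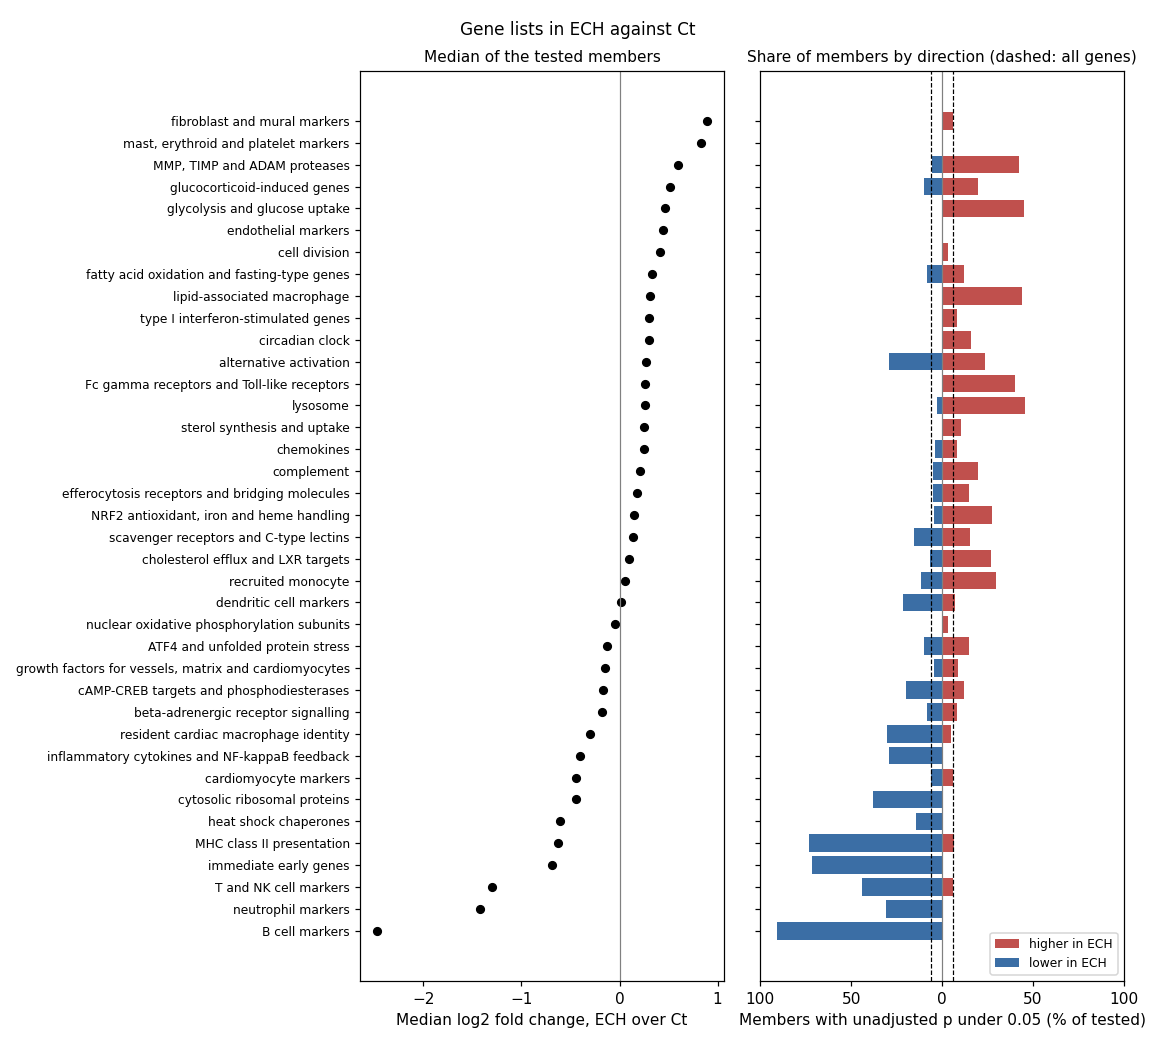
Each gene list (rows) by the median log2 fold change of its tested members (left axis) and by the share of tested members with an unadjusted p under 0.05, higher to the right and lower to the left (right axis, %). Dashed lines mark the shares over all genes, 6.03% and 5.89%; lysosome, glycolysis, protease and lipid-associated lists extend right and B cell, MHC class II and immediate early lists left.

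The lists not yet named held no called gene. Cholesterol efflux genes had 4 of 15 with an unadjusted p under 0.05 upward and 1 downward (median 0.10), and among them Soat1, which esterifies cholesterol, was at 95.0, 84.2, 74.4 and 87.3 CPM in Ct and 142, 118, 212 and 161 CPM in ECH (log2 difference 0.89 ± 0.17, edgeR QL FDR 0.0359, under the fold threshold). Sterol synthesis genes had 2 of 19 upward and none downward (Mvd and Lss, median 0.25), with medians of 0.58 in ECH libraries 1 and 2 and -0.32 in ECH libraries 3 and 4. ATF4 stress genes had 3 of 20 upward and 2 downward (median -0.13), with Ppp1r15a, the eIF2α phosphatase subunit, at 1002 to 1611 CPM in Ct and 445 to 949 CPM in ECH. Type I interferon genes had 2 of 24 upward, Oas3 and Ifi204, and none downward (median 0.30). Growth factors had 2 of 23 upward and 1 downward (median -0.15), with granulin (Grn) at 1952 to 2378 CPM in Ct and 2349 to 3113 CPM in ECH. Cell division genes had 1 of 30 upward, Rrm2, and none downward (median 0.41, 0.01 in ECH libraries 1 and 2). The 12 sort and pan-Mφ genes had 2 upward, Itgam and Mertk, and none downward (median 0.06), and 68.7% of the exon bases of Itgam are shared with Gm49368, another annotated gene on the same strand.

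Chemokine genes had 2 of 25 with an unadjusted p under 0.05 upward and 1 downward. Cx3cl1 (fractalkine) was at 1.93, 0, 1.18 and 1.25 CPM in Ct and 9.55, 11.3, 16.8 and 34.4 CPM in ECH (log2 difference 4.04 ± 0.91, edgeR QL FDR 0.0828). The groups were apart, and the FDR turned on single libraries and on the tool: it was 0.0168 without Ct library 2, the control at 0, 0.237 without ECH library 4, 6.53e-05 in DESeq2 and 0.00194 in edgeR's likelihood ratio test. Ccl9 lay at 793 to 2128 CPM in Ct and 1739 to 1969.7 CPM in ECH. The median of the list was 0.25, with 0.52 in ECH libraries 1 and 2 and -0.60 in ECH libraries 3 and 4. All 34 cytosolic ribosomal protein genes were negative, with a median of -0.44 and 13 with an unadjusted p under 0.05. Ct library 2 stood apart, with a sum of 15346 CPM against 6447 to 8353 CPM in the other controls and 6954 to 7047 CPM in ECH. Without that library the median was -0.10 and no member had an unadjusted p under 0.05. With only Ct libraries 1 and 3 it was -0.21, and 7 members had an unadjusted p under 0.05 downward.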

How the data were processed

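Total RNA of sorted cardiac Mφ was made into SMART-Seq v4 libraries and sequenced as paired ends on a NextSeq 500. The authors trimmed reads with Trimmomatic, aligned them to mm10 with TopHat2 and counted them per gene with featureCounts. Tool versions and the settings for strand and for pairs of reads were not given in the sources used. The values used are the gene counts deposited by the authors, whole numbers with no normalization. The 8 libraries compared held 88466559 to 109030774 counts, and their replicates correlated at r = 0.87 to 0.96 across genes (log2 CPM), with no pair as alike as copies of 1 library. PCR copies cannot be told from separate molecules here, so floors (3 counts for a count of 0) cover counting error only.

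Counts of all 12 libraries (3 groups of 4) were fitted in 1 model with edgeR 4.0.16 in R 4.3.3 (filterByExpr, which left 14608 of 24445 genes; TMM scaling; quasi-likelihood F test; Benjamini-Hochberg adjustment), and ECH was contrasted with Ct. Calls needed both an FDR under 0.05 and a change of at least 2-fold. SE is the log2 fold change divided by the square root of F. limma 3.58.1, DESeq2 1.42.0, RLE scaling, other filters, a replicate block, the inferred library set, either pair of ECH libraries and the omission of each library were alternatives, and the fits with ECH libraries 3 and 4 only and with Ct libraries 1 and 3 only were added after seeing the data. Figures were drawn with matplotlib 3.10.9 in Python 3.11.15.

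Genes named are the called genes, except 1 that is not reported here (in every library for the 12 higher and 8 lower ones of smallest p, and elsewhere as needed), up to 3 further members of each list with the smallest unadjusted p under 0.05, and the sort markers. Csf1r, Cd68, Trem2, Apoe, Lpl, Tfeb and Tfe3 fall outside this rule and were chosen after their values were seen. The same holds for Ctss, Gsn, Alas2, the hemoglobin genes and the markers given at 0 (Pdgfra, Mpo, Pax5 and Ncr1). The 39 lists cover Mφ states and receptors, adrenergic and stress signalling, metabolism and markers of other cells, and none was tested as a set. The comparison and the lists were chosen with earlier results of these data known. Shares of exon bases with other genes were 42.9% for Acadvl, 28.3% for Mmp19, 26.4% for Ltc4s, 22.1% for Adcy3, 19.7% for Uqcrc2, 19% for Bhlhe41, 16.3% for Ctla2a and 11.4% for Galnt6, beside those in the text. Positions are from GENCODE M21 (GRCm38, the build of mm10) and promoters from RefSeq on GRCm38.p6, matched by symbol for 10983 of the 14608 genes.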

Additional observations from a re-analysis of the deposited data

Results flagged for a closer look

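Of 182 groups of 4 libraries examined (called genes and summed lists, in Ct or ECH), 11 held a library whose gap to the nearest other exceeded Dixon's 95% critical value, or 6.04%, where chance flags about 1 in 20 groups. None was explained further.

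In single genes, Ct library 4 was high for Ctsd, at 1137 CPM against 989 to 1001 CPM in the other controls. Ct library 2 was high for Ctla2a, at 22.8 against 7.86 to 9.62 CPM, and low for Tfrc, at 61.1 against 74.0 to 75.8 CPM. Ct library 3 was high for Pkm, at 598.5 against 412 to 423 CPM, and low for Gm16907, at 5.75 against 9.888 to 10.55 CPM. ECH library 3 was high for Fabp7, at 1.96 against 0.376 to 0.519 CPM. The groups did not overlap in any called gene, so none of these 6 libraries could lie within the range of the other group.

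In summed lists, Ct library 1 was high for heat shock chaperones, at 21342 against 9884 to 11012 CPM, and Ct library 3 for glycolysis and glucose uptake, at 3912 against 2781 to 2883 CPM. Ct library 2 was low for lysosome genes, at 24704 against 29394 to 29496 CPM, and Ct library 4 for inflammatory cytokines and NF-κB feedback, at 4984 against 7057 to 7351 CPM. ECH library 1 was high for antioxidant, iron and heme genes, at 30139 CPM, with the rest of the group between 23722 and 23968 CPM.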

How the results depend on the processing

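None of the 142 named genes changed sign in any of the 20 alternative fits that tested it, but many calls were lost or gained. Slc16a9 and Fabp7 were tested in 19 of these fits. The genes were picked by their p in the main fit on the same libraries, so a stable sign is no independent support. Against 39 higher and 13 lower calls, DESeq2 gave 131 and 117, the edgeR likelihood ratio test 135 and 83, limma-voom 50 and 34, and a stricter filter (over 1 CPM in at least 4 libraries) 44 and 20. An FDR under 0.1 gave 61 and 44, and an FDR under 0.05 at any fold 48 and 21. RLE scaling (40 and 15) and no filter beyond 1 count (42 and 16) stayed within 1.5 times. Several fits called fewer genes: 6 and 2 on the Ct and ECH libraries alone, 19 and 3 when the inferred set entered as a covariate, 19 and 1 with ECH libraries 1 and 2 only, and 9 and 0 with only Ct libraries 1 and 3, added after seeing the data. In the last fit 3.19% of genes were lower at an unadjusted p under 0.05. ECH libraries 3 and 4 only, also added after seeing the data, gave 105 and 104.

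Leaving out 1 library gave 10 to 57 higher and 1 to 38 lower calls. The counts moved by over 1.5 times without Ct library 1 (10 and 1), Ct library 4 (23 and 3), ECH library 3 (16 and 1) and ECH library 4 (25 and 2), and, for lower calls, without Ct library 3 (38) and ECH library 2 (21). The cause of these shifts was not tested.

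The share of calls that were higher was 75% in the main fit, 52.8% in DESeq2, 61.9% in the likelihood ratio test and 59.5% in limma-voom. The median log2 fold change of all genes was 0.00132 under RLE scaling and 0.01 under TMM.

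A replicate block gave 16 and 6 calls, of which 15 and 5 were among the 39 and 13. Replicate numbers did not pair the libraries, since deviations of same-numbered Ct and ECH libraries correlated at -0.036, -0.0115, -0.0548 and 0.0687. Each mouse gave 1 library, so differences between mice and between preparations cannot be told apart.

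Medians of these lists changed sign in at least 1 fit, and their ranges over the fits were -0.14 to 0.40 for the recruited monocyte list, -0.37 to 0.33 for the alternative activation list, -0.60 to 0.53 for the chemokine list, -0.03 to 0.23 for the scavenger receptor and lectin list, -0.30 to 0.05 for the cAMP target list, -0.24 to 0.72 for the glucocorticoid list, -0.46 to 0.57 for the clock list, -0.51 to 0.27 for the growth factor list. They were -0.16 to 0.57 for the fatty acid oxidation list, -0.17 to 0.12 for the oxidative phosphorylation list, -0.32 to 0.59 for the sterol synthesis list, just below 0 to 0.34 for the cholesterol efflux list, -0.59 to 0.22 for the ATF4 list, -0.21 to 0.26 for the dendritic cell list, -1.09 to 1.20 for the mast, erythroid and platelet list and -0.07 to 0.30 for the sort marker list. All other lists kept their sign in every fit used for these ranges. The DESeq2, likelihood ratio and limma-voom fits were not used for list medians.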
